A study of Mus musculus with 18 samples.

Results

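MAP kinase phosphatases are the enzymes that switch MAP kinases off, and the levels of 9 of their genes were followed through stimulation of macrophages with bacterial lipopolysaccharide (LPS). The 9 genes, Dusp1, Dusp2, Dusp3, Dusp4, Dusp5, Dusp6, Dusp7, Dusp10 and Dusp16, were chosen by symbol as members of the dual-specificity phosphatase family, and all 9 were among the 24485 genes listed in each library. RNA was sequenced from bone marrow-derived macrophages (BMDMs) of 12-week-old male Il10-/- mice on the C57BL/6J background, so every group, controls included, lacked an intact Il10 gene, the gene of an anti-inflammatory cytokine. The 18 libraries formed 6 groups of 3, each group holding 1 library from each of the same 3 mice: untreated cells, cells given (+)-JQ1 at 500 nM, cells given IL-10 at 10 ng/mL, and the same 3 conditions followed by LPS. Pretreatment lasted 12 hours, and LPS at 50 ng/mL or PBS was then added for 4 hours. (+)-JQ1 (JQ1 hereafter) is a small molecule that displaces BET proteins such as BRD2 from acetylated chromatin.

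LPS sensed by TLR4 activates the ERK, JNK and p38 MAP kinases within minutes, and dual-specificity phosphatases end this activity by removing phosphate from both the threonine and the tyrosine of the kinase activation loop. The family falls into classes by location and substrate. Dusp1, Dusp2, Dusp4 and Dusp5 encode nuclear enzymes that are typically made on stimulation, Dusp6 and Dusp7 encode cytoplasmic enzymes that prefer ERK, Dusp10 and Dusp16 encode enzymes that prefer JNK and p38, and Dusp3 encodes a small enzyme without the MAP kinase-binding domain. In macrophages Dusp1 is known for restraining p38 and JNK and, through them, cytokine production.

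Library totals ran from 6781952 to 28289498 expected counts. The macrophage markers (Adgre1, Cd68, Csf1r, Itgam, Lyz2, Mertk and Cd14) were detected in every group. Their summed level was lowest with LPS, at 14070 to 15492 TPM, overlapping the 14952 to 16495 TPM of LPS + IL-10. It was highest with JQ1 alone, at 28926 to 29055 TPM. TPM is a relative abundance of transcripts that accounts for gene length. Most of this sum was Lyz2, which alone ran from 9722 to 24853 TPM. The summed markers of T cells, B cells, dendritic cells, fibroblasts and erythroid cells stayed at or below 9.63 TPM. Among these, the T cell markers were lower in the groups with JQ1. They summed to 2.16 to 3.92 TPM there, against 5.17 to 8.88 TPM in the groups without it. Of the T cell markers, Cd3e, Cd3g and Cd8a stayed at or below 0.14 TPM in every library. Cd4 ran from 1.72 to 8.53 TPM, and Lck reached 4.46 TPM. The dendritic cell markers were higher with LPS (2.08 to 2.82 TPM) than in untreated cells (0.11 to 0.95 TPM). Neutrophil markers summed to 6.76 to 76.1 TPM, with Ly6g at 0 in every group. S100a8 (2.91 to 37.61 TPM) and S100a9 (3.85 to 40.85 TPM) made up most of this sum. Camp stayed at or below 2.47 TPM, Elane at or below 0.15 TPM and Mpo at or below 0.09 TPM. With JQ1 alone the neutrophil markers summed to 6.76 to 13.9 TPM, below the 21.1 to 76.1 TPM of untreated cells. With LPS + JQ1 they summed to 10.7 to 23.9 TPM, a range that overlapped that of untreated cells. It lay below the 33.2 to 47.5 TPM of LPS alone and the 28.4 to 62.8 TPM of LPS + IL-10. The part of these markers in the results was not tested. In such bulk samples, fewer cells of a type and less RNA per cell cannot be told apart. Reads of Il10 remained in every group, with a mean of 32.5 normalized counts in untreated cells, so the level of this gene did not identify the deletion. Hexim1, a gene that rises on BET inhibition, went from 690 normalized counts in untreated cells to 3103 with JQ1, and from 270 with LPS to 2841 with LPS + JQ1.

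The promoters of 4 members are shown first, chosen because their windows hold a core CRE motif. They include those of Dusp1 and Dusp16, which differed most between the pretreatments, and of Dusp2, which LPS moved most. RefSeq promoter windows of build GRCm38.p6, from 250 bases before to 50 bases after the start of transcription, were matched by symbol for 8 of the 9 members, the exception being Dusp4. The windows of Dusp1 (chr17:26508423-26508722, minus strand), Dusp16 (chr6:134792579-134792878, minus strand), Dusp2 (chr2:127335909-127336208, plus strand) and Dusp5 (chr19:53528895-53529194, plus strand) are printed 5′ to 3′ on the strand of the gene, with capitals marking the core CRE motif TGACG (or CGTCA), bound by factors that respond to cyclic AMP, and CArG boxes, bound by SRF.
Dusp1: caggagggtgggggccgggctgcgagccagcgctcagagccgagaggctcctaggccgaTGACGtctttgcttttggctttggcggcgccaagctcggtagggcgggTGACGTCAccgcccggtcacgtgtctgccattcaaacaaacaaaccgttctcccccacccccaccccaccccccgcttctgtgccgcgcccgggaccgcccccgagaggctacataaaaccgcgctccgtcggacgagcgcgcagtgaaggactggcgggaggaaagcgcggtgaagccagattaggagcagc
Dusp16: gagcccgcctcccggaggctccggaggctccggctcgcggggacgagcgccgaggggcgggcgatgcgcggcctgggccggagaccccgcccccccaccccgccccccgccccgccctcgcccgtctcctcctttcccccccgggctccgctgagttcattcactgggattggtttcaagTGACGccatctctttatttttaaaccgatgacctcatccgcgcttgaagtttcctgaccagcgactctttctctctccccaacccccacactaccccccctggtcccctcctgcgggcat
Dusp2: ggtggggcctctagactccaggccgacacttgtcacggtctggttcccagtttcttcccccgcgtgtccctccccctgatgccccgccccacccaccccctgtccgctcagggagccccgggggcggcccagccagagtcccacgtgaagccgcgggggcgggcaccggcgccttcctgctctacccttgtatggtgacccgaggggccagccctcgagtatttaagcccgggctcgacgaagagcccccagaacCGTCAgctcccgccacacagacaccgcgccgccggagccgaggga
Dusp5: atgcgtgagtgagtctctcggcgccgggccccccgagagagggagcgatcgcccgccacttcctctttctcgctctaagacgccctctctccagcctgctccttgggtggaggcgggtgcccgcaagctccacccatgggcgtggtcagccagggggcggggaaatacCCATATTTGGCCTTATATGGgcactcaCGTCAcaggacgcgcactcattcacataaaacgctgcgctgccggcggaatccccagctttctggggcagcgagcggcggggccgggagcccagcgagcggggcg
In the Dusp1 window the full palindromic CRE, TGACGTCA, began at position -143 from the start, a motif held by 1.79% of the 32851 promoters in the table. The core motif TGACG, searched on both strands and counted also inside the palindrome, was found in 4 of the 8 member windows (Dusp1, Dusp2, Dusp5 and Dusp16) and in 20.8% of all promoters. The Dusp5 window held 2 adjoining CArG boxes, beginning at positions -82 and -72, against 1.63% of all promoters with at least 1 such box. The E-box CACGTG was found in Dusp1 and Dusp2 (7.15% of promoters) and the GC box GGGCGG in 7 of the 8 windows (35.7% of promoters). None of these E-boxes or GC boxes shared a base with the capitals. No match to the AP-1 site TGANTCA (7.81% of promoters), an NF-kB site (4.51%) or an interferon-stimulated response element (3.44%) was found in these 8 windows, which says only that these letters are not in them.

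On the build mm9, the members lay on 9 different chromosomes. Dusp1 spanned chr17:26642535-26645464, Dusp2 chr2:127161895-127164112 and Dusp16 chr6:134665488-134742643, the longest of the 9. Counts for each member were the authors' gene totals over its annotated transcripts. No exon of any member overlapped an exon of another annotated gene on either strand, and the expected counts of all 9 members were whole in all 18 libraries.

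In untreated cells the summed RNA of the 9 members, taken per length, was made mainly of Dusp3 and Dusp1. Summed over the 9 members, the level per length was 277 ± 17.5 TPM (SD, n = 3), of which Dusp3 gave 35.8% and Dusp1 31.1%. The members ranked, in mean TPM, Dusp3 at 99.1, Dusp1 at 86.3, Dusp7 at 42.4, Dusp6 at 18.1, Dusp4 at 12.7, Dusp16 at 7.64, Dusp2 at 4.65, Dusp5 at 4.52 and Dusp10 at 1.57. The libraries of Dusp3 and Dusp1 overlapped, as did those of Dusp2 and Dusp5, and the other neighbors in this order did not.

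With LPS, Dusp2 moved from rank 7 to rank 1 in this order and Dusp3 from rank 1 to rank 5. Dusp1 kept rank 2 and Dusp10 rank 9. The summed level was 691 ± 34.6 TPM with LPS, and Dusp2, a nuclear phosphatase first found as an immediate early gene of activated lymphocytes, made up 79.4% of it against 1.67% in untreated cells. Dusp3 made up 1.58% with LPS. With LPS + JQ1 the sum was 603 ± 38.9 TPM and Dusp2 made up 82.9%. With LPS + IL-10 the sum was 913 ± 72.6 TPM, the Dusp2 share was 52.1%, the Dusp1 share was 33.6% against 9.59% with LPS alone, and the Dusp16 share was 9.45% against 4.57%. Shares are of TPM, a relative scale, and depend on gene length. When reads were not divided by length, the Dusp1 share of untreated cells was 18.7% and the Dusp2 share with LPS was 67.5%. On that scale the shares with LPS + IL-10 were 38.5% for Dusp2, 30.4% for Dusp1 and 23.8% for Dusp16, the last against 13.2% with LPS alone.

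**Figure D1:**
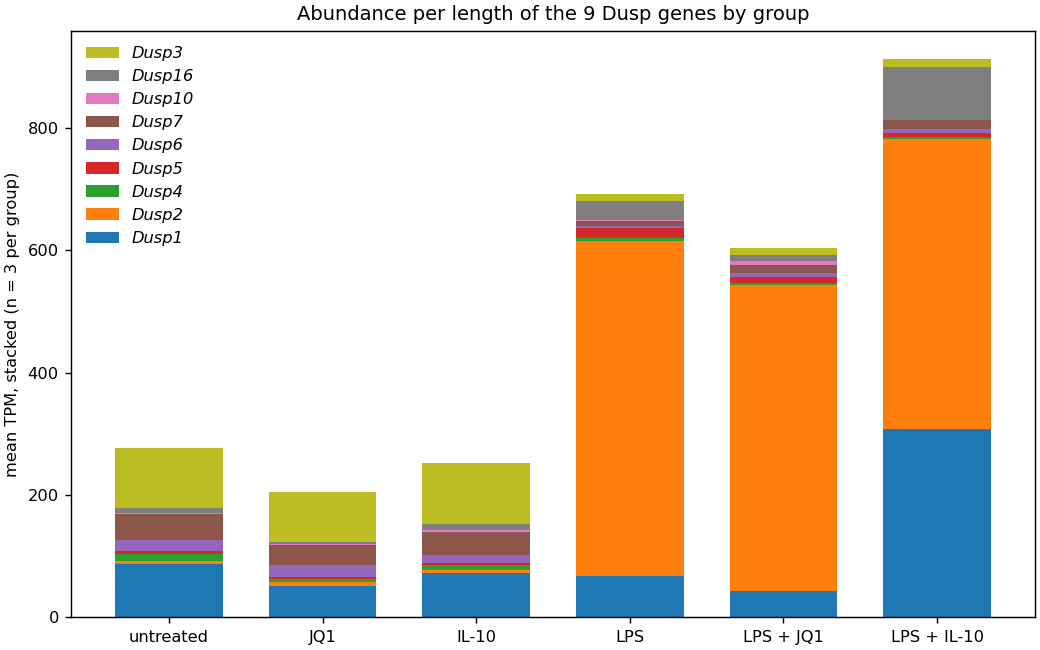
Stacked bars give the mean TPM of each of the 9 Dusp genes (colors) in each group (x axis, n = 3 libraries per group), on a linear axis from 0. Dusp2 fills most of the bar in all 3 LPS groups, and the Dusp1 segment reaches 308 TPM with LPS + IL-10 against 66.4 TPM with LPS alone.

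To ask how LPS alone moved these genes, LPS-stimulated cells were compared with untreated cells. All 9 members changed at an adjusted p under 0.05, against 64.7% of the 14918 genes tested. Of them 5 rose (Dusp2, Dusp16, Dusp5 and, with signs that turned under scaling by total counts, Dusp10 and Dusp1) and 4 fell (Dusp3, Dusp7, Dusp6 and Dusp4), where 31.7% of all genes rose and 33.0% fell. The libraries of the 2 groups did not overlap for any member, as for 69.5% of all genes. Of all changed genes 49.0% were higher, and 20.1% under scaling by total counts. The median log2 fold change was 0.40 over the members and -0.07 over all genes tested.

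Among the nuclear enzymes, Dusp2 moved the most. Its normalized counts were 55.5, 38.9 and 50.3 in untreated cells and 10178, 9736 and 9471 with LPS. Every LPS library lay over 2 orders of magnitude above every untreated library, a log2 fold change of 7.61 ± 0.14 (SE), with an adjusted p that the software returned as 0. Dusp5, a nuclear phosphatase specific for ERK, had 33.2, 27.1 and 34.9 normalized counts in untreated cells and 211, 166 and 178 with LPS. Its log2 fold change was 2.52 ± 0.28 (adjusted p = 1.61e-18). Dusp1 stood at 1151, 978 and 1169 normalized counts in untreated cells and at 1311, 1570 and 1468 with LPS. This small difference, 0.40 ± 0.14 on the log2 scale (adjusted p = 0.00853), depended on the scaling, here the median of gene ratios. It was -0.53 under scaling by total counts and -0.37 on log2(TPM + 1), where the median of all genes was -1.02 and -0.69, and it was not called without replicate 2 (adjusted p = 0.182). Dusp4 went the other way, from 219, 198 and 202 normalized counts to 144, 190 and 134. Its fall of -0.40 ± 0.17 on the log2 scale (adjusted p = 0.0287) lost its call with lane as a covariate (0.0515), with only the compared groups in the fit (0.0808), without replicate 1 (0.292) and without replicate 3 (0.220).

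Of the enzymes that prefer JNK and p38, Dusp16 rose clearly and Dusp10 did not on every scale. Dusp16 had 319, 222 and 277 normalized counts in untreated cells and 1903, 1810.5 and 2016 with LPS. The groups were far apart, at a log2 fold change of 2.79 ± 0.12 (6.91-fold, adjusted p = 2.89e-113). Dusp10 was the least abundant member, with 25.5, 27.1 and 34.2 normalized counts in untreated cells and 60.8, 42.4 and 49.1 with LPS. Its rise of 0.78 ± 0.27 on the log2 scale (adjusted p = 0.00648) was -0.15 under scaling by total counts and 0.02 on log2(TPM + 1), and its adjusted p was 0.210 without replicate 1.

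The cytoplasmic, ERK-selective pair and the small phosphatase Dusp3 fell. Dusp3 had 2555, 3005 and 3138 normalized counts in untreated cells and 513, 553 and 577 with LPS. No LPS library came near an untreated library, and the log2 fold change was -2.40 ± 0.09 (adjusted p = 2.76e-154). Dusp7 went from 975, 1005 and 825 normalized counts to 305, 301 and 282, a log2 fold change of -1.65 ± 0.10 (adjusted p = 9.86e-62). Dusp6, itself a target gene of ERK signaling and used as a readout of it, went from 360, 326 and 343 to 99.0, 133 and 112, a log2 fold change of -1.57 ± 0.13 (adjusted p = 1.12e-30). In all 3 genes, the libraries of the 2 groups did not overlap, as for 69.5% of all genes.

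**Figure D2:**
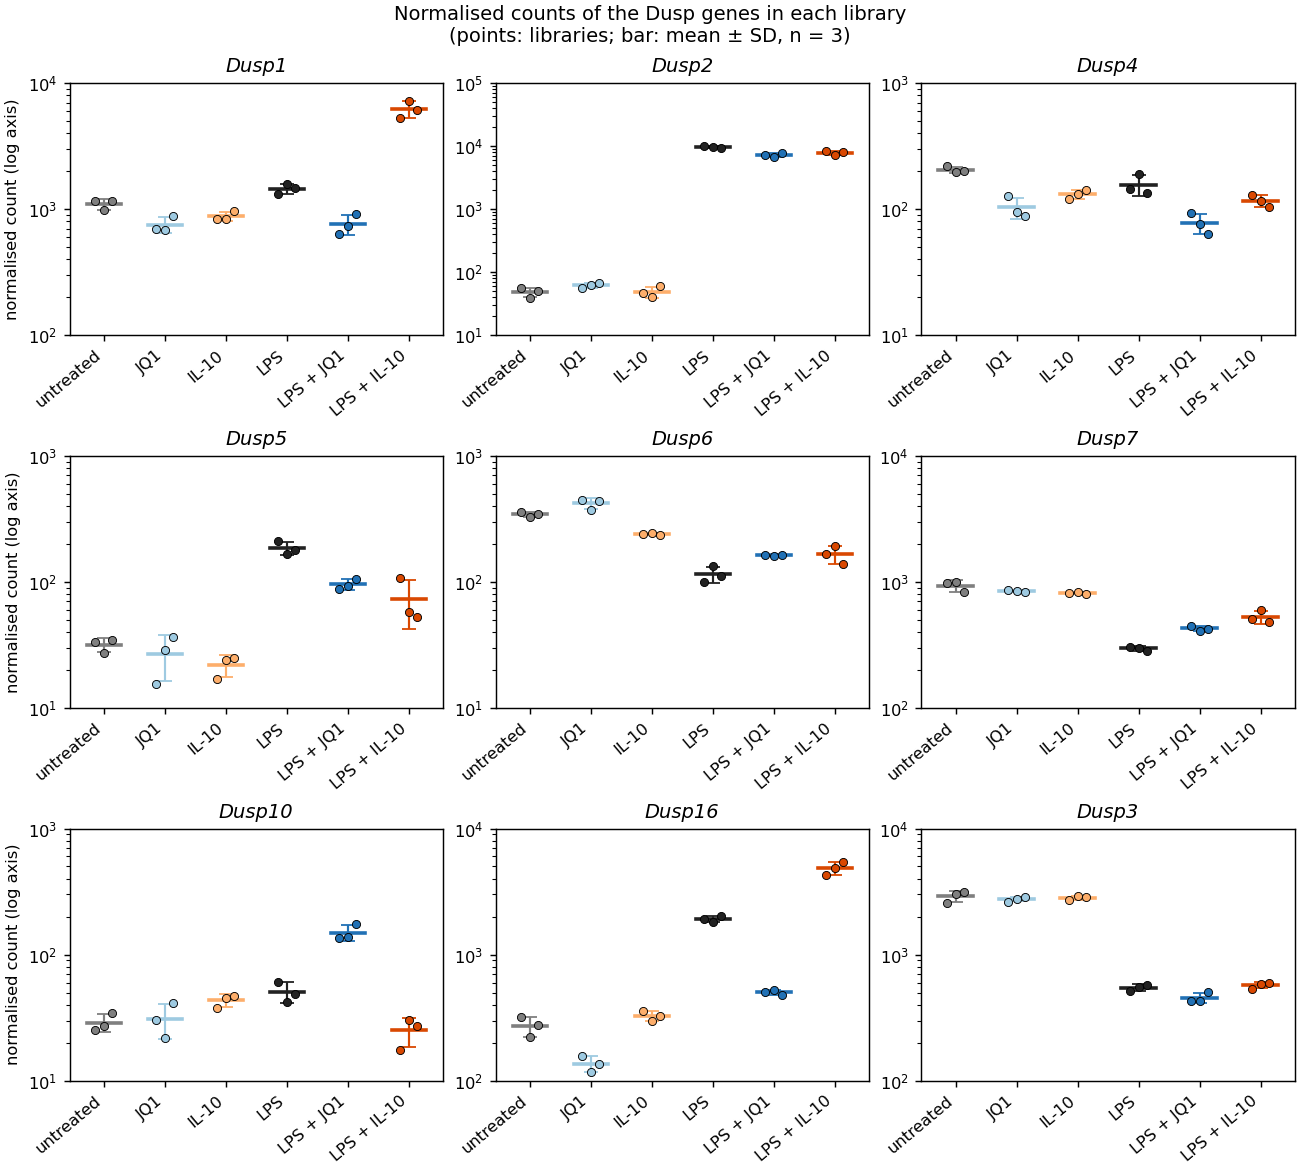
Each panel plots the normalized counts of 1 Dusp gene on a log axis, with a point for each library, a bar for the group mean and whiskers for the SD (n = 3), over the 6 groups on the x axis. Dusp2 and Dusp16 sit higher in all LPS groups than without LPS, Dusp3, Dusp6 and Dusp7 sit lower, and the LPS + IL-10 group stands alone at the top of the Dusp1 panel and the LPS + JQ1 group at the top of the Dusp10 panel.

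The study asked how BET inhibition and exogenous IL-10 alter the response to LPS. JQ1-pretreated and IL-10-pretreated cells were each compared with cells given LPS alone, so the 2 comparisons share the same 3 LPS libraries. With JQ1, 6 of the 9 members were lower (Dusp16, Dusp4, Dusp5, Dusp1, Dusp2 and, with a sign that turned under scaling by total counts, Dusp3) and 3 were higher (Dusp10, Dusp7 and Dusp6), where 57.6% of all genes tested changed, 33.1% lower and 24.5% higher. With IL-10, 4 were higher (Dusp1, Dusp16, Dusp7 and Dusp6), 3 were lower (Dusp5, Dusp10 and Dusp2) and 2 were not called, where 16.9% of all genes tested changed, 8.22% higher and 8.64% lower. The median log2 fold change over the members was -0.44 with JQ1, against -0.11 over all genes, and 0.06 with IL-10, against -0.02. The libraries did not overlap for any of the 9 members with JQ1 (62.0% of all genes) and for 8 with IL-10 (25.9%). Of all changed genes, 42.5% were higher with JQ1 and 48.8% with IL-10, and under scaling by total counts these shares were 64.8% and 71.0%.

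Dusp1, Dusp16 and Dusp10 moved in opposite directions under the 2 pretreatments. Dusp1 had 632, 740 and 907 normalized counts after JQ1 and LPS, and 5329, 7222 and 6108 after IL-10 and LPS. The first lay below, and the second far above, every library given LPS alone (1311, 1570 and 1468). The log2 fold change against LPS alone was -0.93 ± 0.14 with JQ1 (adjusted p = 2.47e-10) and 2.10 ± 0.14 with IL-10 (4.29-fold, adjusted p = 1.52e-48). Dusp16 had 502, 522 and 480.1 normalized counts after JQ1 and LPS, and 4305, 4854 and 5429 after IL-10 and LPS, on either side of the 1810.5 to 2016 seen with LPS alone. Its log2 fold change was -1.93 ± 0.12 with JQ1 (adjusted p = 8.82e-58), which left 26.4% ± 2.52 (SD, n = 3) of the level of LPS alone, and 1.35 ± 0.11 with IL-10 (adjusted p = 1.74e-30), which brought it to 255% ± 24.5. For Dusp1 and Dusp16, both effects kept direction and call under all 13 alternative settings.

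Dusp10 showed the reverse order. It had 135, 138 and 174 normalized counts after JQ1 and LPS, and 17.6, 30.4 and 27.0 after IL-10 and LPS, against 60.8, 42.4 and 49.1 with LPS alone. No LPS + JQ1 library overlapped any other group, and the log2 fold change was 1.56 ± 0.23 with JQ1 (adjusted p = 1.21e-10) and -1.004 ± 0.29 with IL-10 (adjusted p = 0.00478). The fall with IL-10 rested on 13 to 30 counts a library before scaling and was not called without replicate 1 (adjusted p = 0.380), without replicate 3 (0.0616) or with only the compared groups (0.0734).

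The other nuclear enzymes were lower under both pretreatments or showed a lower estimate. Dusp5 had 88.3, 92.7 and 106 normalized counts after JQ1 and LPS, and 108, 57.8 and 52.3 after IL-10 and LPS. All 6 libraries were below the 166 to 211 of LPS alone, with log2 fold changes of -0.95 ± 0.26 (adjusted p = 0.000561) and -1.36 ± 0.27 (adjusted p = 6.87e-06). Dusp2 had 7244, 6743 and 7739 normalized counts after JQ1 and LPS, and 8482, 7147 and 7922 after IL-10 and LPS. Its log2 fold changes were small, -0.44 ± 0.08 with JQ1 (adjusted p = 6.81e-07) and -0.32 ± 0.08 with IL-10 (adjusted p = 0.00160), so that it stood at 74.0% and 80.1% of the level of LPS alone. The first was -0.06 under scaling by total counts (adjusted p = 0.519) and the second was not called without replicate 2 (0.131), with only the compared groups (0.0553) or on log2(TPM + 1) (0.302). Dusp4, a nuclear phosphatase, had 92.8, 75.8 and 64.0 normalized counts with LPS + JQ1, all below LPS alone, a log2 fold change of -1.01 ± 0.19 (adjusted p = 2.07e-07). With IL-10 its log2 fold change was -0.44, with a 95% interval from -0.79 to -0.09 before adjustment and an adjusted p of 0.0745.

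The ERK-selective pair was higher under both pretreatments. Dusp7 had 447, 410 and 425 normalized counts after JQ1 and LPS, and 506, 600.4 and 481 after IL-10 and LPS, against 305, 301 and 282 with LPS alone. The log2 fold changes were 0.53 ± 0.10 (adjusted p = 1.27e-06) and 0.83 ± 0.10 (adjusted p = 6.92e-14). Dusp6 had 163, 161 and 164 normalized counts after JQ1 and LPS, and 166, 193 and 139.7 after IL-10 and LPS, all above the 99.0 to 133 of LPS alone. Its log2 fold changes were 0.49 ± 0.14 (adjusted p = 0.00163) and 0.50 ± 0.15 (adjusted p = 0.00564). Both Dusp6 calls were lost without replicate 1 (adjusted p = 0.115 and 0.279), and the second also without replicate 2 (0.0718) and with only the compared groups (0.133). Dusp3 stayed low throughout, at 429, 429 and 502 normalized counts after JQ1 and LPS, and 537, 587 and 594 after IL-10 and LPS. The log2 difference with JQ1, -0.28 ± 0.10 (adjusted p = 0.00934), was 0.10 under scaling by total counts and 0.03 on log2(TPM + 1), and was not called with TMM scaling (0.151) or by edgeR (0.0785). With IL-10 the log2 difference was 0.06, with a 95% interval from -0.13 to 0.25.

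**Figure D3:**
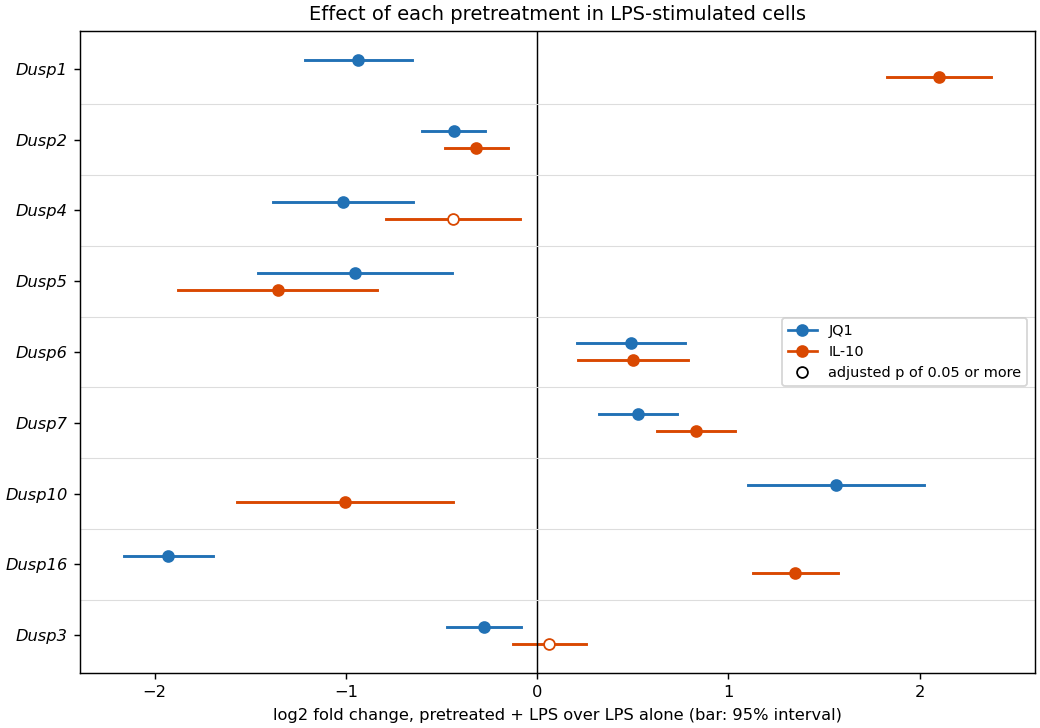
Points give the log2 fold change of each Dusp gene (y axis) in cells pretreated with JQ1 (blue) or IL-10 (orange) and given LPS, over LPS alone (x axis), with bars for the 95% interval and open points where the adjusted p was 0.05 or more. Dusp1 and Dusp16 lie to the left for JQ1 and to the right for IL-10, Dusp10 lies the other way around, and Dusp6 and Dusp7 lie to the right for both.

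The LPS + JQ1 and LPS + IL-10 groups were also compared with each other directly. In this comparison 5 members were lower with JQ1 (Dusp16, Dusp1, Dusp4, Dusp3 and Dusp7), 1 was higher (Dusp10) and 3 were not called, where 55.6% of all genes tested changed, 31.7% lower and 23.9% higher. The libraries did not overlap for 6 members, as for 60.0% of all genes. Dusp16 was 9.69-fold lower with JQ1, a log2 fold change of -3.28 ± 0.12 (adjusted p = 1.60e-168), and Dusp1 was 8.19-fold lower, at -3.03 ± 0.14 (adjusted p = 5.33e-101). Dusp10 was 5.92-fold higher, at 2.57 ± 0.27 (adjusted p = 9.48e-21). For each of these 3 genes, the libraries of the 2 groups did not overlap. The log2 differences of Dusp4 (-0.57 ± 0.19), Dusp3 (-0.34 ± 0.10) and Dusp7 (-0.30 ± 0.10) were smaller, and without replicate 2 none of these 3 was called (adjusted p = 0.0758, 0.103 and 0.301), nor under scaling by total counts (0.203, 0.640 and 0.888). For Dusp2, Dusp5 and Dusp6 the 95% intervals of the log2 difference ran from -0.28 to 0.05, from -0.13 to 0.94 and from -0.28 to 0.26. Without replicate 1, whose LPS + IL-10 library had the highest Dusp5 value of its group, Dusp5 was called higher with JQ1 (0.86, adjusted p = 0.0128).

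Without LPS, each pretreatment was compared with untreated cells. With JQ1, 3 members fell (Dusp16, Dusp4 and Dusp1), 1 rose (Dusp6) and 5 were not called, where 46.0% of all genes tested changed, 23.9% lower and 22.1% higher. The libraries did not overlap for 5 members, as for 58.9% of all genes. Dusp16 had 156, 116 and 137 normalized counts with JQ1, none overlapping the 222 to 319 of untreated cells, a log2 fold change of -1.02 ± 0.14 (adjusted p = 2.66e-12). Dusp4 had 126, 94.6 and 88.8 normalized counts against 198 to 219, a log2 fold change of -0.999 ± 0.17 (adjusted p = 3.33e-08). Dusp1 had 701, 679 and 876 normalized counts against 978 to 1169, a log2 fold change of -0.55 ± 0.14 (adjusted p = 0.000403). These are 3 genes that were also lower with JQ1 in the presence of LPS. The rise of Dusp6, 0.29 ± 0.11 on the log2 scale (adjusted p = 0.0251), was lost whichever replicate was left out and, under scaling by total counts, was 0.11 (adjusted p = 0.490).

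With IL-10 alone 2 members fell (Dusp4 and Dusp6) and 7 were not called, where 2.75% of all genes tested changed, 0.996% lower and 1.75% higher. The libraries did not overlap for 5 members, as for 17.0% of all genes. Dusp6 had 239, 243 and 236 normalized counts, all below the 326 to 360 of untreated cells, a log2 fold change of -0.53 ± 0.11 (adjusted p = 0.000457). Dusp4 had 121, 131 and 142, all below 198, a log2 fold change of -0.66 ± 0.16 (adjusted p = 0.00380). Neither was called without replicate 1 (adjusted p = 0.351 and 0.486) or on log2(TPM + 1) (0.0753 and 0.0517). Dusp4 had no adjusted p without replicate 2, and Dusp6 was not called without replicate 3 (0.0789). Dusp1, the member most raised by IL-10 in the presence of LPS, had 831, 833 and 966 normalized counts with IL-10 alone, all below the untreated libraries. Its log2 difference was -0.33 ± 0.14, not called here (adjusted p = 0.307) and called lower with lane as a covariate (0.0170) or with only the compared groups (0.0153).

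Whether the effect of LPS itself differed with pretreatment was tested as an interaction, in which the log2 effect of LPS in pretreated cells is set against that in untreated cells. In JQ1-pretreated cells LPS raised 4 members and lowered 3, where 57.5% of all genes tested changed, 27.1% higher and 30.4% lower. In IL-10-pretreated cells it raised 4 and lowered 4, where 67.3% changed, 33.4% higher and 33.9% lower. Libraries with and without LPS did not overlap for 7 members after JQ1 (65.2% of all genes) and for 8 after IL-10 (72.4%). Dusp1 had a log2 effect of LPS of 0.01 after JQ1, with a 95% interval from -0.27 to 0.29 (-0.36 under scaling by total counts), and of 2.83 ± 0.14 after IL-10 (7.10-fold, adjusted p = 1.04e-90). Dusp16 had log2 effects of 1.88 ± 0.14 after JQ1 (adjusted p = 1.23e-42) and 3.89 ± 0.12 after IL-10 (14.8-fold, adjusted p = 3.62e-241), beside 2.79 in untreated cells. Dusp10 had log2 effects of 2.25 ± 0.24 after JQ1 (adjusted p = 9.87e-20) and -0.78 ± 0.28 after IL-10 (adjusted p = 0.00856), opposite in sign. The second was not called without replicate 1 (adjusted p = 0.122) or without replicate 3 (0.0745). For Dusp4 the effect after JQ1 was -0.41 ± 0.19 (adjusted p = 0.0506), and with the replicate number as a block it passed the threshold (adjusted p = 0.0481). After IL-10 its effect was -0.18, with a 95% interval from -0.52 to 0.16.

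The interaction with IL-10 was called for 5 members, 4 higher and 1 lower, where 7.3% of all genes tested were called, 3.93% higher and 3.37% lower. The difference in the log2 effect of LPS was 2.43 ± 0.20 for Dusp1 (adjusted p = 1.79e-31), 1.10 ± 0.17 for Dusp16 (adjusted p = 1.24e-08), 1.03 ± 0.18 for Dusp6 (adjusted p = 2.10e-06), 1.01 ± 0.13 for Dusp7 (adjusted p = 1.35e-11) and -1.56 ± 0.39 for Dusp10 (adjusted p = 0.00163). The value for Dusp10 was not called without replicate 1 (adjusted p = 0.295), and without replicate 3 it had no adjusted p. For Dusp6 and Dusp7 a positive value means a smaller fall with LPS: after IL-10, LPS lowered them by 0.55 and 0.64 on the log2 scale, beside falls of 1.57 and 1.65 in untreated cells.

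The interaction with JQ1 was called for 4 members, 2 higher and 2 lower, where 40.6% of all genes tested were called, 17.3% higher and 23.3% lower. Its value was 1.47 ± 0.36 for Dusp10 (adjusted p = 0.000217) and 0.66 ± 0.14 for Dusp7 (adjusted p = 7.67e-06), and it was -0.91 ± 0.18 for Dusp16 (adjusted p = 4.15e-06) and -0.75 ± 0.19 for Dusp2 (adjusted p = 0.000401). Under scaling by total counts, which moved the median of all genes from -0.05 to 0.51, the values of Dusp16 and Dusp2 were -0.36 and -0.19 and were not called (adjusted p = 0.123 and 0.392). For Dusp1 the interval of the interaction with JQ1 ran from -0.78 to 0.01, and it was called with lane as a covariate (adjusted p = 0.0144), whereas its value was 0.17 under scaling by total counts (adjusted p = 0.531).

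**Figure D4:**
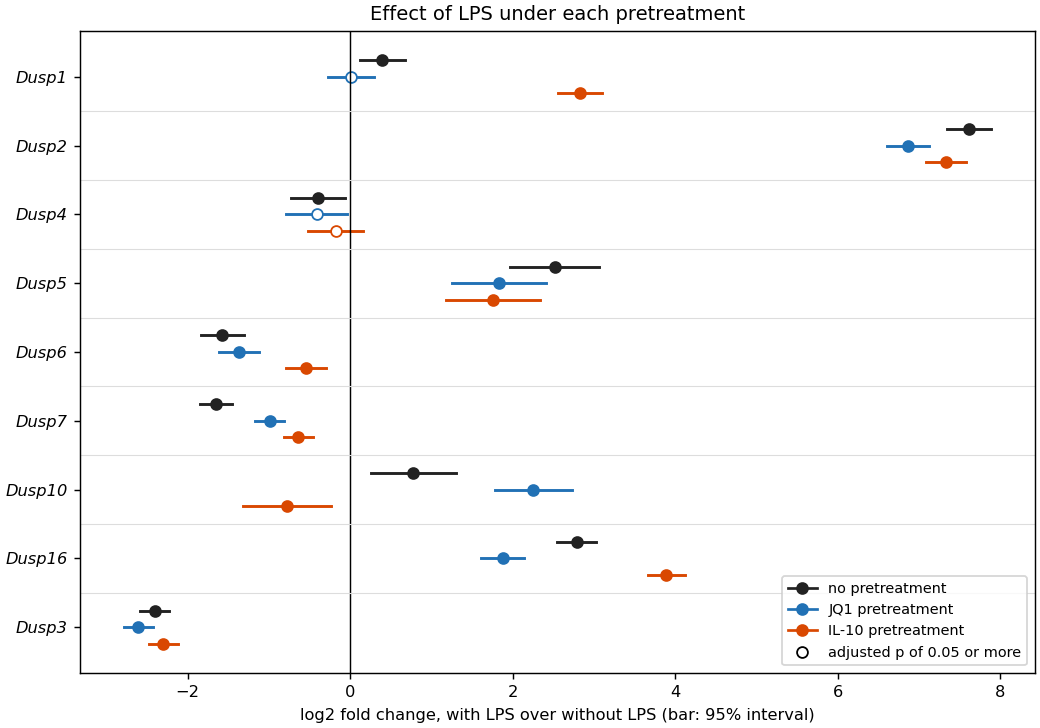
Points give the log2 fold change of each Dusp gene (y axis) with LPS over without LPS (x axis) in cells with no pretreatment (black), JQ1 (blue) or IL-10 (orange), with bars for the 95% interval and open points where the adjusted p was 0.05 or more. The 3 points spread most for Dusp1 (0.40, 0.01 and 2.83), Dusp10 (0.78, 2.25 and -0.78) and Dusp16 (2.79, 1.88 and 3.89), and lie close together for Dusp3 and Dusp4.

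With LPS + JQ1 set against untreated cells, all 9 members were still called, 4 higher and 5 lower, where 65.9% of all genes tested changed, 31.8% higher and 34.1% lower. The libraries did not overlap for any member, as for 72.1% of all genes. Dusp1 and Dusp4 were below their untreated level, Dusp1 at -0.54 ± 0.14 on the log2 scale (adjusted p = 0.000344) and Dusp4 at -1.41 ± 0.18 (adjusted p = 2.90e-14). Dusp16 remained above it, at 0.86 ± 0.13 (adjusted p = 4.40e-11).

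The other genes of the MAP kinase pathway were read from 7 lists of 89 genes in all, chosen by function. With LPS, 36 were higher and 32 lower of 82 tested, where 64.7% of all genes were called. With JQ1 in LPS-stimulated cells, 23 were higher and 24 lower of 81 tested (57.6% of all genes called), and with IL-10, 13 were higher and 9 lower of 73 tested (16.9%). With JQ1 alone, 27 were higher and 21 lower of 80 tested (46.0%), and with IL-10 alone, 4 were higher and 4 lower of 78 tested (2.75%). The counts of the single lists below are to be read against the same shares of all genes, and nothing particular to a list is drawn from them. Over all these lists together, the median log2 fold change was -0.08 for JQ1 with LPS and -0.03 for IL-10 with LPS, beside -0.11 and -0.02 for all genes.

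The Sprouty and Spred genes, which like Dusp6 encode feedback inhibitors of the Ras to ERK branch, had 4 lower and 3 not called of 7 tested with JQ1 in LPS-stimulated cells (57.6% of all genes called) and a median log2 fold change of -1.21. Spred1 went from 10752 to 3433 normalized counts (-1.65 ± 0.14), Spry2 from 140.0 to 60.7 (-1.22 ± 0.19) and Spred2 from 239.7 to 103 (-1.21 ± 0.16). With JQ1 alone 4 of 7 were lower as well, at a median of -0.79, and with IL-10 in LPS-stimulated cells the median over 5 tested was -0.02. Among the MAP kinase-responsive immediate early genes, 6 were higher and 2 lower of 9 tested with IL-10 in LPS-stimulated cells (16.9% of all genes called), with a median log2 fold change of 0.53. Ier3 (0.97 ± 0.12), Ier2 (0.87 ± 0.09) and Fos (0.71 ± 0.16) were higher, and Egr2 (-1.15 ± 0.17) and Atf3 (-0.45 ± 0.09) were lower. With JQ1 the same list had 5 higher and 3 lower of 12 tested, with Fos (-2.29 ± 0.18), Egr2 (-2.05 ± 0.18) and Ier2 (-0.83 ± 0.10) lower and Jun (1.83 ± 0.08), Ier3 (1.78 ± 0.12) and Zfp36 (1.11 ± 0.08) higher.

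Upstream and downstream kinases changed in both directions. Of the MAP2 and MAP3 kinases, 9 were higher and 9 lower of 19 tested with LPS (64.7% of all genes called), among them Map3k8, the kinase that couples TLR4 to ERK (2.48 ± 0.09), and Map2k1, which phosphorylates ERK (2.30 ± 0.05). With JQ1 in LPS-stimulated cells Map3k8 was lower (-1.17 ± 0.09), as was Braf (-1.39 ± 0.14), and with IL-10 Map3k8 was higher (0.39 ± 0.08). Of the MAP kinases, 2 were higher and 4 lower of 9 tested with JQ1 in LPS-stimulated cells (57.6% of all genes called), Mapk8 (JNK1) at 0.81 ± 0.16 among the higher, and Mapk3 (ERK1) at -0.70 ± 0.08 among the lower. Of the kinases downstream of MAP kinases, 5 were higher and 4 lower of 10 tested with LPS, and of the scaffolds and adaptors, 5 were higher and 5 lower of 11. Mapkapk2, the kinase through which p38 acts on cytokine mRNA, rose by 3.55 ± 0.09 with LPS, and Mknk2, a kinase of the translation factor eIF4E, went from 3218 to 119 normalized counts with LPS and stood at 3328 with LPS + JQ1.

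Of the 16 other dual-specificity phosphatase genes on the list, 13 could be tested with LPS, and 5 were higher, 5 lower and 3 not called (64.7% of all genes called). With JQ1 in LPS-stimulated cells, 3 were higher and 4 lower of 13 tested, with a median log2 fold change of -0.59. In LPS-stimulated cells, Dusp22 had a log2 fold change of 0.80 ± 0.13 under JQ1 and of -0.78 ± 0.16 under IL-10, the same 2 directions as Dusp10. It went from 270.2 normalized counts in untreated cells to 126 with LPS.

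The genes most like each member over the 18 libraries were found by Pearson correlation of log2(normalized count + 1) among 8371 genes. This is a description only, since the points are 18 libraries in 6 groups and share the effect of LPS. For Dusp2 they were Clic4 (r = 0.999), Nfkbia, the inhibitor of NF-kB (0.998), and Sdc4 (0.998). For Dusp16 they were Cp, which encodes ceruloplasmin (0.991), Ptges, prostaglandin E synthase (0.987), and Hivep2 (0.987). For Dusp1 they were Sema4c (0.981), Lrrc25 (0.956) and Tnip2 (0.944), and for Dusp3 they were Cln8 (0.997), St6gal1 (0.996) and Arhgap18 (0.995). For Dusp7 they were Tor4a (0.990), Mtss1 (0.974) and Irf2bpl (0.973). For Dusp5 they were Gm13889 (0.965), Cx3cl1 (0.953) and Fam133b (0.953), and for Dusp6 they were Lrrc45 (0.963), Tmem189 (0.956) and Pip4k2c (0.942). The values were lower for Dusp10, with Zfp422 (0.917), Id2 (0.905) and Zbtb18 (0.889), and for Dusp4, with Abcb4 (0.909), Vwf (0.900) and Aprt (0.885). Among the members themselves, Dusp1 and Dusp16 had r = 0.86, Dusp6 and Dusp7 0.92, and Dusp2 and Dusp3 -0.99.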

How the data were processed

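Total RNA of 18 BMDM cultures was sequenced by the authors from stranded, ribosomal RNA-depleted libraries as paired-end reads, which they aligned with STAR to mm9 and quantified with RSEM 1.2.31 with its defaults. The authors deposited, for each gene, an expected count, estimated from the reads and rounded here to a whole number, and a TPM value, scaled for gene length and used here where genes are compared with each other. All genes with a count above 0 were fitted with DESeq2 1.42.0 in R 4.3.3 by its Wald test, the test that the methods of the study name, with a term for group, median-of-ratios scaling and default independent filtering. A gene was called at an adjusted p (Benjamini-Hochberg, over all genes tested) under 0.05. Normalized counts are the counts divided by the size factors. Intervals of 95% are ± 1.96 SE.

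Groups and replicate numbers came from the labels, which describe matched samples of 3 mice. The numbers were therefore taken as pairs for the percentages of the level of LPS alone. The main fit had no term for replicate. The mean correlation of same-numbered deviations over 11390 genes ran from -0.05 to 0.32 over the comparisons. For JQ1 with LPS it was below that of differently numbered libraries (-0.04 against 0.02). The same held for LPS + JQ1 against LPS + IL-10 (-0.05 against 0.02), and in the other comparisons it was above. Replicate 1 was on lane 7, replicate 3 on lane 8, and replicate 2 on lane 7 without LPS and lane 8 with LPS. The labels call the cells without pretreatment untreated, whereas the methods name a vehicle control before LPS. Replicates differed beyond sampling noise (chi-square per degree of freedom of 4.14 to 30.5 over 18 pairs). Pairs holding replicate 3 of LPS or of LPS + IL-10 were at 26.1 to 30.5, and all other pairs at 11.2 or less.

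The members and gene lists were chosen with earlier results of these data known. The text names all 9 members, up to 3 risen and 3 fallen pathway genes per list among those called with a mean of at least 100 normalized counts, and the 3 genes most like each member. The alternatives were TMM and total-count scaling, a minimum of 10 counts in 3 or more libraries, no independent filtering, a replicate block, lane, each replicate number left out, only the groups compared, the quasi-likelihood test of edgeR 4.0.16, and limma 3.58.1 on log2(TPM + 1) and log2(TPM + 0.1). For JQ1 with LPS only, the DESeq2 and edgeR tests were also run on counts simulated from the DESeq2 fit. The other comparisons and fits were not simulated.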

Additional observations from a re-analysis of the deposited data

Results flagged for a closer look

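The results below were picked out because the effect of LPS differed between pretreated and untreated cells by the interaction test of DESeq2 over all genes. For JQ1 the difference in the log2 effect of LPS was -0.75 for Dusp2, 0.66 for Dusp7, 1.47 for Dusp10 and -0.91 for Dusp16. For IL-10 it was 2.43 for Dusp1, 1.03 for Dusp6, 1.01 for Dusp7, -1.56 for Dusp10 and 1.10 for Dusp16. Both sets use the same untreated and LPS libraries. Dusp7 was picked out in the same direction for both pretreatments, and Dusp10 and Dusp16 in opposite directions. The background was 40.6% of all genes called for JQ1 and 7.3% for IL-10.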

How the results depend on the processing

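Of 99 values of the members, 80 stayed on their side of the threshold, with no sign change of a called value, under scaling by total counts, 81 and 82 in the TPM fits, 88 without replicate 1 and 97 with TMM. Sign changes are given where the value was called in at least 1 of the 2 fits; those called in neither are left out. Under scaling by total counts these were Dusp1 (-0.53) and Dusp10 (-0.15) for LPS, Dusp3 (0.10) for JQ1 with LPS, Dusp2 (0.17) for LPS + JQ1 against LPS + IL-10, Dusp1 (-0.36) for LPS after JQ1 and Dusp3 (0.35) for the interaction with JQ1. On log2(TPM + 1) they were Dusp1 for LPS (-0.37), Dusp3 for JQ1 with LPS (0.0266) and Dusp4 for the interaction with JQ1 (0.51), and on log2(TPM + 0.1) the first 2 of these (-0.38 and 0.0289). The median of all genes for LPS was -0.07, and -0.15, -1.02 and -0.69 with TMM, total counts and log2(TPM + 1), and higher calls were 49.0%, 45.8%, 20.1% and 23.2% of the changed genes; for JQ1 with LPS the medians were -0.11, 0.00, 0.25 and 0.17 and the shares 42.5%, 50.0%, 64.8% and 62.7%.

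Counts of members called moved as follows. With LPS, 3 in place of 5 were higher under total counts and both TPM fits. With JQ1 alone, 0 in place of 1 were higher under the same 3 fits, and 5 in place of 3 lower under total counts and log2(TPM + 1). Of all genes changed with JQ1 alone, 26.7% were higher under total counts and 24.6% and 23.4% in the TPM fits. The main fit had 48.0%. With IL-10 alone, 0 in place of 2 were lower in both TPM fits, where 171 and 117 of all 11436 genes were called. The main fit called 356 of 12953. With IL-10 and LPS, 1 in place of 3 was lower with only the groups compared, where 1092 of all 11413 genes were called. The main fit called 1963 of 11643. For LPS + JQ1 against LPS + IL-10, 3 in place of 1 were higher under total counts and 2 in both TPM fits, and 2 in place of 5 lower under total counts and with only the groups compared, 3 in both TPM fits. Of all genes changed there, 61.2% were higher under total counts and 57.7% and 57.5% in the TPM fits. With only the groups compared the share was 47.3%, and in the main fit 42.9%. For LPS after JQ1, 5 in place of 3 were lower under total counts, where 25.6% of all changed genes were higher, against 47.1% in the main fit. For the interaction with JQ1, 4 in place of 2 were higher under total counts and log2(TPM + 1), and in place of 2 lower there were 0 under total counts, 1 on log2(TPM + 1) and 0 on log2(TPM + 0.1). Of all genes called for this interaction, 85.3%, 82.8% and 83.5% were higher in these 3 fits, against 42.6% in the main fit. The cause of these moves was not tested.

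Leaving out a replicate number in turn gave 0 members higher with JQ1 alone, 0 to 1 lower with IL-10 alone, 1 to 2 higher and 2 to 5 lower for LPS + JQ1 against LPS + IL-10, and 0 to 1 lower for the interaction with IL-10. Calls over all genes dropped as well. They went from 6254 to between 4055 and 4782 with JQ1 alone, and from 356 to between 129 and 197 with IL-10 alone. For LPS + JQ1 against LPS + IL-10 they went from 7930 to between 6349 and 6686, and for the interaction with IL-10 from 802 to between 295 and 466. The replicate block changed no call of the members other than that of Dusp4 for LPS after JQ1 (adjusted p = 0.0481). Dusp5 and Dusp10 had at most 161 counts in a library.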
